A study of Mus musculus with 13 samples.

Results

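The 10 genes described here encode heat shock chaperones: the HSP70 proteins Hspa8, Hspa1a and Hspa1b, their partners Dnajb1 and Hsph1, the HSP90 proteins Hsp90aa1 and Hsp90ab1, the small heat shock proteins Hspb1 and Hspb8, and the chaperonin Hspd1. The members were given by name as a list of cytosolic heat shock chaperones, and their symbols were matched to gene identifiers by the mouse GRCm39 annotation. No threshold on a value was part of the rule, but earlier results of these data were known when the list was made. All 10 are among the 57010 genes listed in each library, and all 10 passed the filter on low counts that left 15034 genes to test. One member stands outside the list's name, since Hspd1 encodes HSP60, which is a chaperonin of the mitochondrial matrix and not of the cytosol.

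RNA-Seq was performed on mouse embryonic fibroblasts (MEFs), primary cells grown from minced wild-type embryos, in 4 groups with the mice numbered 4, 5 and 6 in each. Control MEFs, labelled untreated, were given vehicle in place of etoposide per the study, and senescent MEFs had been exposed for 24 h to the topoisomerase II poison etoposide (2 μM) and then kept in normal medium for 5 days. The other 2 groups were such senescent MEFs given Fucoidan-FV, a sulfated polysaccharide from the brown alga Fucus vesiculosus, at 100 μg/mL or at 300 μg/mL, with RNA taken after 12 h. Control mouse 5 was sequenced as a pair of libraries, 5(1) and 5(2), whose counts were summed, so 13 libraries gave 12 samples. No group here held control MEFs given Fucoidan-FV.

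Chaperones bind unfolded stretches of other proteins and keep them from aggregating while they fold. HSP70 proteins cycle on and off their clients with ATP, J-domain proteins such as Dnajb1 bring clients and start ATP hydrolysis, and HSP110 proteins such as Hsph1 exchange the nucleotide. HSP90 takes over partly folded clients, among them kinases and steroid receptors, and works with a set of cochaperones. Small heat shock proteins hold unfolded clients without ATP. Hspa8 and Hsp90ab1 are made constitutively, whereas Hspa1a, Hspa1b, Hspb1, Hsph1, Dnajb1 and Hsp90aa1 are classical targets of heat shock factor 1 (HSF1), which binds repeats of the letters GAA in alternating orientation, the heat shock element.

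The libraries held 22782536 to 31278750 expected counts. Cdkn1a and Cdkn2a, cell cycle inhibitors that mark senescence, were higher in senescent than in control MEFs by 1.82 and 2.46 on the log2 scale (adjusted p = 6.8e-05 and 7.2e-05, edgeR). Of 10 fibroblast markers, 9 or 10 reached 1 TPM in at least 1 sample of every group. TPM is a level per transcript length, scaled to the same total in every library. In control, Dcn was at 0.675 to 1.35 TPM, Pdgfra at 0.38 to 5.32 and Lum at no more than 0.06. The summed level of the fibroblast markers was 13862 to 15743 TPM in control samples and 17869 to 21979 TPM in the other groups, with Vim and Fn1 the largest parts. The 7 macrophage markers summed to at most 3.93 TPM in control and at most 18.95 TPM in the other samples, with Ptprc at no more than 0.37 TPM. The 6 skeletal muscle markers, mostly Acta1 with Myod1, Myog and Myf5 at no more than 0.06 TPM, summed to 180 to 214 TPM in control, 129 to 175 in senescent, 33.5 to 112 at 100 μg/mL and 42.5 to 93.3 at 300 μg/mL. The 4 neural markers, mostly Tubb3, summed to 46.5 to 88.5 TPM in control, 43.7 to 48.0 in senescent, 66.45 to 118 at 100 μg/mL and 67.5 to 97.9 at 300 μg/mL. Endothelial and epithelial markers summed to at most 4.28 and 2.01 TPM. Marker levels moved with the groups, and their part in the results was not tested. The libraries also differed in how much of the count went to genes whose exonic bases mostly lie in only 1 listed transcript. This is described with the members it touches.

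The promoters are shown first, because matches to the letters of the heat shock element can be read without any level. In the 250 bases before the start of the canonical transcript (GRCm39, annotation of GENCODE), 2 neighbouring units were searched as GAANNTTC and TTCNNGAA and 3 units as GAANNTTCNNGAA and TTCNNGAANNTTC, on both strands. Longer matches contain the shorter ones, and overlapping matches were each counted. Of 21757 promoters of protein-coding genes, 12.3% held a match of 2 units and 0.349% one of 3 units. Among the members, Hspa1a and Hspa1b had 1 match of 2 units each, Hspb1 had 2, Hsph1 had 1 and Hspd1 had 3 overlapping ones, which include 2 matches of 3 units. The windows of Hspa8, Hsp90ab1, Hspb8 and Dnajb1 held none, which says only that these letters are absent from 250 bases. Windows that hold a match and no annotated exon are printed with the matched letters in capitals, the first for the pair of inducible HSP70 genes (chr17:35191133-35191382, minus strand) and the second for the small heat shock protein (chr5:135916510-135916759, plus strand).
Hspa1a: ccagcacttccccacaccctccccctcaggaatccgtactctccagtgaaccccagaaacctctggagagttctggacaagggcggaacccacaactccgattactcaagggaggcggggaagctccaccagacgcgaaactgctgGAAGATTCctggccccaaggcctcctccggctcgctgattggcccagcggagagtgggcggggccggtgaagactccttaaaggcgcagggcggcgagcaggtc
Hspb1: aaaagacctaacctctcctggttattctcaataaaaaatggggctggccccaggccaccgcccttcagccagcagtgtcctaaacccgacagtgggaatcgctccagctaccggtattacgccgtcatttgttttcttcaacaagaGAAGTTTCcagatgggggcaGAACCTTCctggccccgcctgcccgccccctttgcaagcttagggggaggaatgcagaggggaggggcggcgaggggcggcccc
The window of Hspa1b (chr17:35178215-35178464, minus strand) differs from that of Hspa1a at 3 of 250 bases. For Hspd1 (chr1:55127212-55127241, minus strand) and Hsph1 (chr5:149559816-149559845, minus strand), whose windows lie in annotated exons, only 30 bases around the matched letters are given.
Hspd1: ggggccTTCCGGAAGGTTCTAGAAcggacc
Hsph1: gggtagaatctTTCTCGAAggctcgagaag
Of these 5 genes with a match, Hspa1a, Hspa1b, Hspb1 and Hsph1 passed the adjusted p in none of the 6 comparisons by edgeR. This holds for the main fit of 12 samples, and the alternatives described below passed Hspb1 and Hsph1 in some comparisons. Hspd1, with the most matches, was lower in senescent than in control MEFs, and also at both doses of Fucoidan-FV. Among genes without a match, Hspb8 and Dnajb1 also passed in none. Hsp90ab1 was lower in the same comparisons as Hspd1, and Hspa8 at both doses. Against control, 26.6% of all genes passed at 100 μg/mL, 24.4% at 300 μg/mL and 11.7% in senescent MEFs. No difference between genes with and without the letters was tested.

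Compared per length, as TPM averaged over the 12 samples, Hspa8 was the most abundant member at 3202 ± 562 TPM (SD), followed by Hsp90ab1 at 1749 ± 499, Hspb1 at 603 ± 199, Hsp90aa1 at 555 ± 127 and Hspd1 at 162 ± 67.03. Lower levels were found for Hspb8 (90.9 ± 10.1 TPM), Hsph1 (65.7 ± 15.2), Dnajb1 (41.6 ± 6.62), Hspa1b (11.3 ± 5.65) and Hspa1a (5.37 ± 1.58). Within this order, the ranges of neighbours overlapped except between Hsp90ab1 and Hspb1, Hsp90aa1 and Hspd1, and Dnajb1 and Hspa1b. The constitutive HSP70 gene thus exceeded the sum of both inducible ones 78.0-fold to 514-fold in single samples. Summed over all 10 genes, the level was 8259 ± 287 TPM in control MEFs, 6292 ± 594 in senescent MEFs, 5568 ± 195 with 100 μg/mL and 5829 ± 411 with 300 μg/mL Fucoidan-FV (SD, n = 3). The lowest control sample, at 7947 TPM, was above the highest sample of any other group, at 6766 TPM. This sum is mostly Hspa8 and Hsp90ab1, whose means went from 4038 to 3037 and from 2537 to 1541 TPM between control and senescent MEFs. The means of Hsp90aa1, Hsph1 and Hspd1 were also lower in senescent MEFs, and those of Hspb1, Hspb8, Dnajb1, Hspa1a and Hspa1b were higher. In bulk RNA, fewer cells that express a gene and less of its RNA per cell cannot be told apart.

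**Figure D1:**
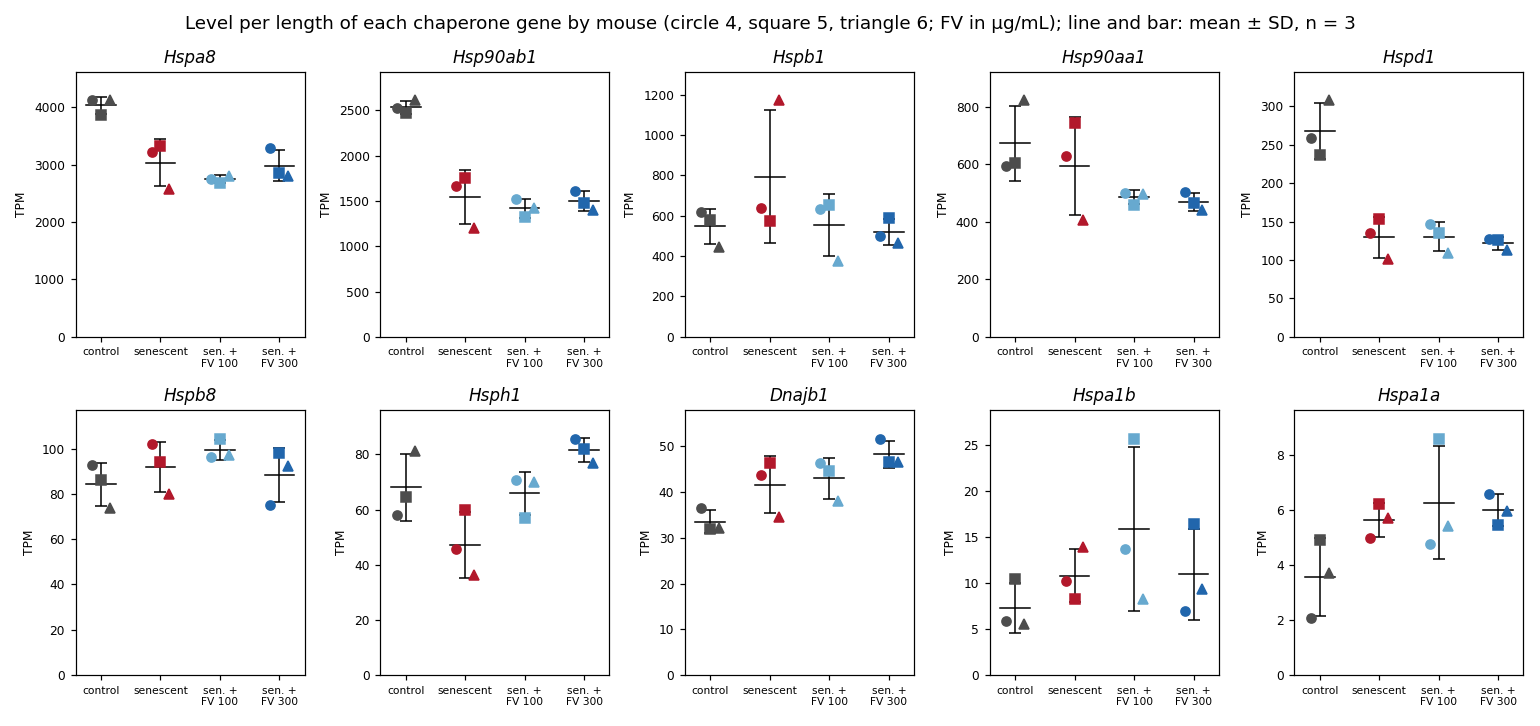
TPM of each of the 10 genes (y axis, linear, from 0) in control MEFs, senescent MEFs and senescent MEFs with Fucoidan-FV (FV) at 100 or 300 μg/mL, 1 point per mouse, with mean and SD of 3 mice. Hspa8, Hsp90ab1 and Hspd1 lie highest in the 3 control samples, and the triangle at 1173 TPM in the panel of Hspb1 is senescent mouse 6.

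Levels compared between groups are CPM, expected counts relative to the TMM-scaled library total, and the 15034 genes were tested together by the quasi-likelihood method of edgeR. A differentially expressed gene (DEG) had to change by over 1 on the log2 scale, in either direction, with an adjusted p under 0.05. The first question was how senescence moved the chaperones. Hsp90ab1 and Hspd1 were lower in senescent than in control MEFs at the adjusted p, and no member was higher. Neither reached a change of 1 on the log2 scale, so 0 of 10 members were DEGs, against 8.42% of all genes tested, and DESeq2 also called 0. By the adjusted p alone 2 of 10 passed, against 11.7% of all genes, and 3 of 10 had an unadjusted p under 0.05, against 25.4% of all genes, which is near that share. The groups did not overlap for 5 of 10 members, against 27.1% of all genes. The median log2 fold change was −0.13 over the members and 0.07 over all genes tested.

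The second question was what Fucoidan-FV did to senescent MEFs. No member passed edgeR's adjusted p at either dose, where 4.02% of all genes passed at 100 μg/mL and 1.90% at 300 μg/mL, while DESeq2 passed Hspa8 and Hspb1 at 100 μg/mL, 2 of 10 against 9.33% of all genes by that tool. These shares depend on the samples: the 605 genes behind the first became 139 without treated mouse 4, and the 286 behind the second became 46 without treated mouse 6, whereas DESeq2 called 1405 and 991. At 100 μg/mL, 0 of 10 were DEGs by edgeR and by DESeq2 (2.69% of all genes by edgeR), with 5 members at an unadjusted p under 0.05 (19.8% of all genes), and the groups did not overlap for 5 (26.2% of all genes). At 300 μg/mL, 0 of 10 were DEGs by both tools (1.64% of all genes by edgeR), with 3 at an unadjusted p under 0.05 (15.3% of all genes), and 4 did not overlap (19.6% of all genes). In CPM most members lay on the lower side, 8 of 10 at 100 μg/mL and 9 of 10 at 300 μg/mL. Their medians were −0.32 and −0.36, where all genes had medians of −0.02 and 0.00. The side depended on the unit. By mean TPM, Hspa1a, Hspa1b, Hspb8, Hsph1, Dnajb1 and Hspd1 were higher at 100 μg/mL than in senescent MEFs. At 300 μg/mL, Hspa1a, Hspa1b, Hsph1 and Dnajb1 were higher by mean TPM, and at each dose the remaining members were lower. The doses were not told apart: between 300 and 100 μg/mL, log2 fold changes ran from −0.39 to 0.32, 0 of 10 members were DEGs by either tool (0.00665% of all genes by edgeR), 0 had an unadjusted p under 0.05 (0.625% of all genes), and only Dnajb1 did not overlap (7.54% of all genes).

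Set against control MEFs, the treated senescent cells showed the largest differences, and these comparisons share their control samples with the first one. At 100 μg/mL, Hspa8, Hsp90aa1, Hsp90ab1 and Hspd1 were DEGs, all lower, which is 4 of 10. Of all genes, 9.37% were lower DEGs, and 2955 of 15034 were DEGs in either direction. The same 4 members passed the adjusted p alone, against 26.6% of all genes in either direction. At 300 μg/mL, Hsp90ab1 and Hspd1 were lower DEGs, 2 of 10. Of all genes, 8.11% were lower DEGs there, and 2704 of 15034 were DEGs in either direction. With Hspa8 and Hsp90aa1, also lower, 4 of 10 passed the adjusted p alone, against 24.4% of all genes in either direction. The groups did not overlap for 7 and 5 members (48.3% and 43.3% of all genes). No member was higher at the adjusted p in any of the 6 comparisons. The count of 4 at 100 μg/mL rests on values close to the limit of 1: it was 1 with DESeq2 or with control mouse 4, 5 or 6 left out, and 2 without mouse 5 or mouse 6 of the treated group.

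**Figure D2:**
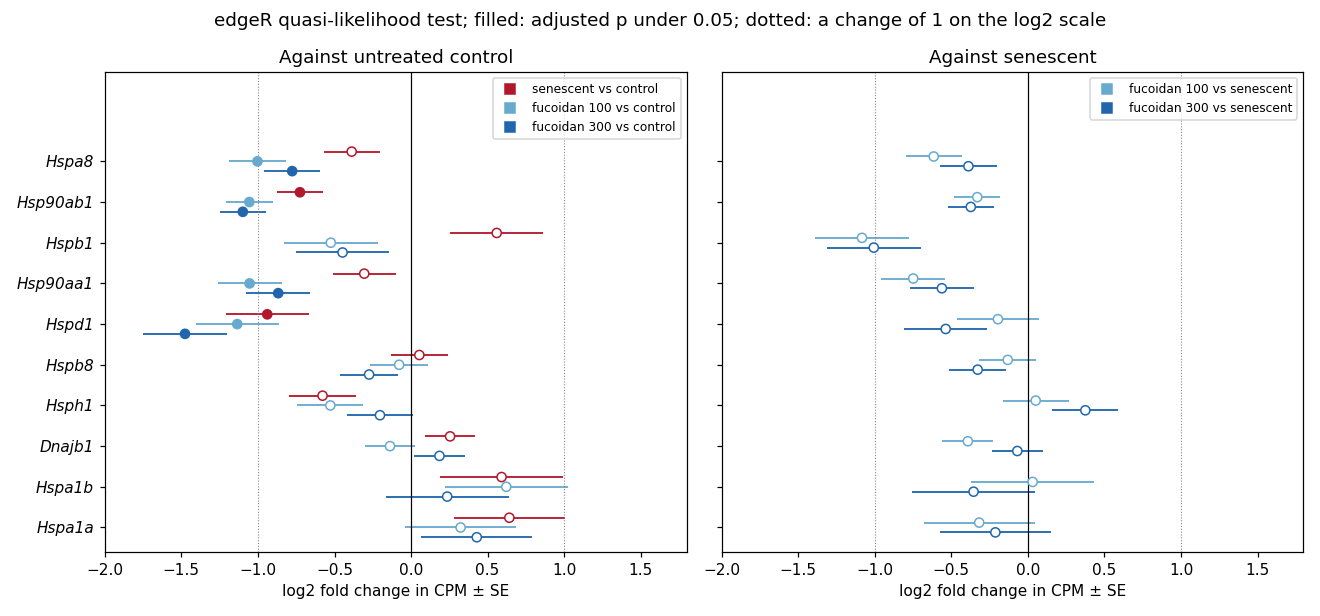
Log2 fold change in CPM (x axis, with SE) of each gene, ordered by level, against control MEFs (left) and against senescent MEFs (right), with filled points for an adjusted p under 0.05 and dotted lines at a change of 1. Filled points are found on the left side of 0 only, for Hspa8, Hsp90ab1, Hsp90aa1 and Hspd1, and none is filled in the right panel.

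Hspa8 (ENSMUSG00000015656, chr9:40711630-40731039, plus strand) encodes HSC70, the constitutive HSP70 of the cytosol. It was counted at 4448, 4464 and 4396 CPM in control mice 4, 5 and 6, and at 2977, 3508 and 3684 CPM in senescent MEFs. With 100 μg/mL Fucoidan-FV the values were 2072, 1972 and 2595 CPM, and with 300 μg/mL 3109, 2254 and 2404 CPM. Every control sample was above every other sample, and the samples at 100 μg/mL were below all senescent ones. The log2 fold change was −0.39 (SE 0.18) from control to senescent MEFs (adjusted p = 0.21, and 0.035 without senescent mouse 6) and −0.62 (SE 0.18) from senescent MEFs to 100 μg/mL (adjusted p = 0.078, and 0.037 by DESeq2). Against control it came to −1.003 (SE 0.19, adjusted p = 0.0015) at 100 μg/mL and −0.78 (SE 0.18, adjusted p = 0.0079) at 300 μg/mL. In TPM the senescent samples and those at 100 μg/mL overlapped, at 2572 to 3325 and 2679 to 2812. This came from senescent mouse 6 at 2572, while mice 4 and 5 were at 3215 and 3325. Of the windows of 75 bases in its transcript, 68.0% also occur in transcripts of 10 other annotated genes, 64.3% in the processed copy Gm15459, so its count depends on how RSEM divided such reads.

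The inducible HSP70 genes Hspa1a (ENSMUSG00000091971, chr17:35188166-35191132) and Hspa1b (ENSMUSG00000090877, chr17:35175412-35178214), neighbours on the minus strand, stayed low in every group. Their transcripts share 52.7% of the windows of 75 bases of Hspa1a and 55.8% of those of Hspa1b, so the split between them is uncertain and their sum is given too. The sum was 16.2, 31.0 and 20.3 CPM in control mice 4, 5 and 6, and 27.4, 29.4 and 46.4 CPM in senescent MEFs. At 100 μg/mL it was 26.01, 47.6 and 23.8 CPM, and at 300 μg/mL 25.05, 32.6 and 25.9 CPM. The sum overlapped between all 4 groups, in CPM and in TPM. The sum differed between senescent and control MEFs by 0.61 on the log2 scale (SE 0.33, adjusted p = 0.28), and between each dose and senescent MEFs by −0.08 (SE 0.33, adjusted p = 0.92) and −0.30 (SE 0.33, adjusted p = 0.74). An increase of up to 1.32 from control to senescent MEFs lies within the 95% interval, so a moderate induction was not detectable with these samples. The genes taken singly gave 0.64 (SE 0.36) and 0.59 (SE 0.40) for senescent against control MEFs, both with an adjusted p over the threshold (0.30 and 0.41).

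Both partners of HSP70 were measured at middle levels. Dnajb1, the J-domain protein that works with inducible HSP70, was at 71.2 to 76.2 CPM in control, 80.9 to 96.0 in senescent, 63.8 to 67.7 at 100 μg/mL and 71.6 to 96.9 at 300 μg/mL. The senescent samples lay above control and above 100 μg/mL without overlap, yet neither difference passed the adjusted p (0.25, SE 0.17, adjusted p = 0.38, and −0.39, SE 0.17, adjusted p = 0.21), and in TPM both pairs overlapped. Between 100 μg/mL and control the direction turned with the unit. The treated samples were all below control in CPM and all above it in TPM (37.98 to 46.37 against 31.99 to 36.45). Hsph1, an HSP110 protein, was at 133, 150 and 172 CPM in control mice 4, 5 and 6, and at 98.2, 131 and 75.7 in senescent MEFs. At 100 μg/mL it was at 93.4, 97.2 and 125 CPM, and at 300 μg/mL at 152, 118 and 126 CPM. In CPM the senescent samples lay below control without overlap, at a change of −0.58 (SE 0.22, adjusted p = 0.11, or 0.023 without senescent mouse 5), and in TPM the groups overlapped. In TPM the 3 samples at 300 μg/mL, at 76.9 to 85.8, were above the senescent ones at 36.2 to 60.0, and the difference in CPM was 0.37 (SE 0.22, adjusted p = 0.45). No 75-base window of either transcript occurs in another annotated gene.

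Hsp90ab1 (ENSMUSG00000023944, chr17:45878552-45891949, minus strand), the constitutive HSP90, gave the clearest difference among the members. Control mice 4, 5 and 6 had 1829, 1732 and 1521 CPM, and senescent MEFs 990, 995 and 1087. The values were 883, 821 and 739 CPM at 100 μg/mL and 802, 791 and 779 CPM at 300 μg/mL. Each of the 4 groups was separate from the others except the 2 doses. Senescent MEFs were 0.605-fold the control (log2 fold change −0.73, SE 0.15, adjusted p = 0.0070, lower in 3 of 3 mice). Against control the change was −1.06 (SE 0.15, adjusted p = 0.00027) at 100 μg/mL and −1.10 (SE 0.15, adjusted p = 0.00022) at 300 μg/mL. From senescent MEFs it was −0.33 at 100 μg/mL and −0.37 at 300 μg/mL (SE 0.15 and adjusted p = 0.24 for both). In TPM, senescent samples (1203 to 1758) and those of both doses (1318 to 1615) overlapped, all below control (2468 to 2613). The overlap came from senescent mouse 6 at 1203, while mice 4 and 5, at 1661 and 1758, were above every treated sample. By TPM, mouse 6 was the lowest senescent sample for 7 members and the highest for 2, and by CPM the lowest for 1.

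Hsp90aa1 (ENSMUSG00000021270, chr12:110656842-110669166, minus strand), the stress-inducible HSP90, was at 1158, 1196 and 1770 CPM in control and 1027, 1280 and 1029 CPM in senescent MEFs. It was at 631, 578 and 776 CPM with 100 μg/mL and at 878, 670 and 712 CPM with 300 μg/mL. Control and senescent samples overlapped, and all treated samples were below both. The change was −0.31 (SE 0.21, adjusted p = 0.40) from control to senescent MEFs. From senescent MEFs it was −0.75 (SE 0.21, adjusted p = 0.061) at 100 μg/mL and −0.56 (SE 0.21, adjusted p = 0.20) at 300 μg/mL, and against control −1.06 (SE 0.21, adjusted p = 0.0024) and −0.87 (SE 0.21, adjusted p = 0.0084). Without the filter on low counts, 100 μg/mL against senescent MEFs passed the adjusted p (−0.67, adjusted p = 0.045). Senescent mouse 6, at 407 TPM, was below all treated samples in TPM, so that in this unit the groups overlapped. The ratio of Hsp90ab1 to Hsp90aa1 in TPM was 3.85 ± 0.59 in control, 2.65 ± 0.29 in senescent MEFs, 2.93 ± 0.10 at 100 μg/mL and 3.19 ± 0.03 at 300 μg/mL (SD, n = 3), and the lowest control ratio, 3.18, was above the highest senescent one, 2.95. The 2 genes are not equally exposed to shared sequence, with 49.3% of the 75-base windows of Hsp90aa1 and 0.685% of those of Hsp90ab1 found in other annotated genes.

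Of the small heat shock proteins, Hspb1 (HSP27 in humans, HSP25 in mice) varied most between mice. Control mice 4, 5 and 6 had 306, 309 and 236 CPM, and senescent MEFs 276, 284 and 696. The treated samples were at 218, 219 and 156 CPM with 100 μg/mL and at 221, 213 and 191 CPM with 300 μg/mL. Senescent mice 4 and 5 lay within the control range, and mouse 6 was more than the sum of both. All treated samples were below all control and all senescent samples. The senescent mean exceeded control by 0.56 (SE 0.31, adjusted p = 0.28), and the log2 fold changes from senescent MEFs to the doses were −1.08 (SE 0.31, adjusted p = 0.064) and −1.01 (SE 0.31, adjusted p = 0.12). Without senescent mouse 6 these became −0.01, −0.34 and −0.38. In TPM the treated samples (376 to 653) overlapped with control (447 to 617). By DESeq2, the difference at 100 μg/mL passed the adjusted p (−0.98, adjusted p = 0.042), as both doses did by edgeR without the filter on low counts (−0.98, adjusted p = 0.0026, and −0.97, adjusted p = 0.0039). Of its 75-base windows, 56.8% are shared with Hsp25-ps1.

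Hspb8, which acts with Bag3 in the clearance of misfolded proteins, had the smallest change of the members from control to senescent MEFs. It had 45.8 to 63.4 CPM in control, 54.6 to 64.9 in senescent MEFs, 49.96 to 57.8 at 100 μg/mL and 40.8 to 50.6 at 300 μg/mL. The change from control to senescent MEFs was 0.05 (SE 0.19, adjusted p = 0.91), with a 95% interval of −0.35 to 0.46. Samples at 300 μg/mL were below the senescent ones without overlap in CPM (−0.33, SE 0.19, adjusted p = 0.45), whereas in TPM these groups overlapped.

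Hspd1 (ENSMUSG00000025980, chr1:55116989-55171038, minus strand), the mitochondrial HSP60, had the largest changes of the members against control MEFs, though not against senescent MEFs. It was at 269, 195 and 163 CPM in control mice 4, 5 and 6, and at 115, 82.4 and 129 CPM in senescent MEFs. The values were 113, 110 and 61.4 CPM with 100 μg/mL and 63.0, 89.2 and 72.8 CPM with 300 μg/mL. All control samples were above all others, and the other 3 groups overlapped. Senescent MEFs were 0.521-fold the control (log2 fold change −0.94, SE 0.27, adjusted p = 0.039). This call is lost with the mouse as a replicate block (−0.91, adjusted p = 0.067) and when any 1 of the 6 samples is left out (−1.08 to −0.72, adjusted p = 0.058 to 0.22). Against control the change was −1.14 (SE 0.27, adjusted p = 0.0078) at 100 μg/mL and −1.48 (SE 0.27, adjusted p = 0.0017) at 300 μg/mL. The call at 100 μg/mL is lost without control mouse 4 (−0.73, adjusted p = 0.13) or 5 (−0.998, adjusted p = 0.064). From senescent MEFs it was −0.20 at 100 μg/mL (SE 0.27, adjusted p = 0.75) and −0.54 at 300 μg/mL (SE 0.27, adjusted p = 0.37). In TPM the separation was wider, with 236 to 308 in control and 101 to 153 in all other samples. On log2(TPM + 1), with TPM rescaled by TMM factors, limma gave −1.11 for senescent against control MEFs (adjusted p = 0.00073), which would make it a DEG. Of the 75-base windows of Hspd1, 33.7% also occur in transcripts of 4 other annotated genes, 32.5% in Hspd1-ps3.

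The counts of several members moved with a property of the library. It was read from the share of a gene's exonic bases that lie in only 1 of its listed transcripts (single-transcript sequence). Over 2274 genes with a share above 95%, the median log2 deviation from the mean of all libraries was taken. This deviation was lowest for control mouse 6 (−1.31) and highest for mouse 5 given 100 μg/mL (0.92). By group it ran from −1.31 to 0.66 in control libraries and from −0.71 to 0.43 in senescent ones. It ran from −0.15 to 0.92 at 100 μg/mL and from −0.87 to 0.45 at 300 μg/mL, so the groups were not balanced for it. Library 5(2) exceeded library 5(1) of the same mouse by 1.81 over these genes and differed by −0.19 over genes with less than 50%. Within groups, the CPM of several members increased with this deviation over the 13 libraries, by Pearson r = 0.94 for Hspb8 (72.7% single-transcript sequence), 0.91 for Hspd1 (71.9%), 0.76 for Hsp90ab1 (42.2%) and 0.72 for Hspa1b (100%). Others ran the other way, with r = −0.94 for Hsp90aa1 (15.2%), −0.91 for Hsph1 (27.4%), −0.73 for Hspa8 (38.9%) and −0.66 for Dnajb1 (14.9%). Hspb1 (12.5%, r = 0.31) and Hspa1a (100%, r = −0.13) followed it least, so the share alone does not order the members. In TPM the sign turned for Hspd1 (r = −0.46) and Hsp90ab1 (r = −0.55), and r was 0.77 for Hspa1b, 0.55 for Hspb8, −0.71 for Hspa8, −0.70 for Hsp90aa1 and −0.67 for Hsph1. Between libraries 5(2) and 5(1) of 1 mouse, the CPM of Hspa1b differed 2.86-fold, that of Hspa1a 1.67-fold and that of Hspd1 1.61-fold, and Hspa8 was at 0.666-fold. These r are descriptions, and the libraries share groups and mouse numbers and differ in total count. RSEM's effective length of Hspd1 also changed between libraries, from 628 to 1534 bases.

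With the library property, gene length and GC content entered as offsets per gene and library (composition offsets), Hsp90ab1 and Hspd1 were still lower in senescent than in control MEFs, by −0.78 (adjusted p = 0.00074) and −0.91 (adjusted p = 0.0026). Hspa8 (−0.40, adjusted p = 0.035) and Hsph1 (−0.51, adjusted p = 0.0046) were then also lower at the adjusted p. In this comparison 3081 of 15034 genes passed it under the offsets, against 1765 without them. From senescent MEFs to 100 μg/mL, Hspa8 (−0.51, adjusted p = 0.026) and Hsp90aa1 (−0.70, adjusted p = 0.0098) passed the adjusted p under these offsets, and Hspb1 came to −0.26 (adjusted p = 0.54). Of all genes, 1093 then passed, against 605 without the offsets. At 300 μg/mL only Hsp90aa1 of the members passed the adjusted p (−0.61, adjusted p = 0.023), where 769 genes passed, against 286 without the offsets. With offsets from the effective lengths, or with limma on log2(TPM + 1), 0 members passed the adjusted p at either dose against senescent MEFs. Few of the 15034 genes passed there, 413 and 420 at 100 μg/mL and 260 and 336 at 300 μg/mL.

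**Figure D3:**
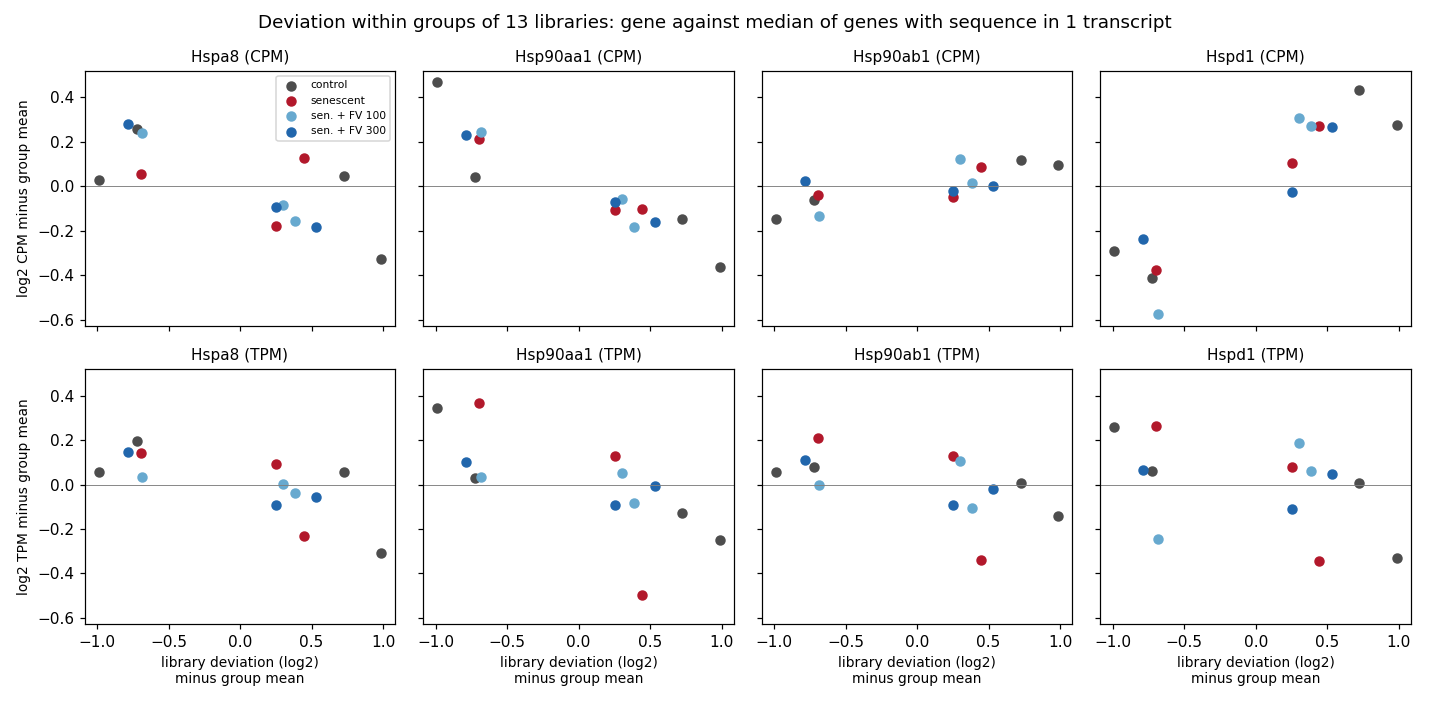
Deviation of 13 libraries from their group mean. The x axis is the library's median log2 deviation over genes with more than 95% of their exonic bases in only 1 listed transcript. The y axis is the log2 CPM (top) or log2 TPM (bottom) of 4 genes, coloured by group. Hspd1 rises and Hsp90aa1 falls along the x axis in CPM, with r = 0.91 and r = −0.94, and in TPM the rise of Hspd1 is not seen while Hsp90aa1 still falls (r = −0.70).

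Other chaperone genes were counted from 10 lists by role. Of 14 cochaperones of HSP90, 3 were lower in senescent than in control MEFs at the adjusted p and 0 higher, with a list median of −0.33, where 5.63% of all genes were lower. With the mouse as a replicate block that count was 2. The DEGs among them were both FK506-binding immunophilins of the HSP90 and steroid receptor complex. Fkbp4 was at 235 ± 10.5 CPM in control and 81.0 ± 14.4 in senescent MEFs (a change of −1.53, SE 0.19, adjusted p = 0.00025). Fkbp5 was at 58.6 ± 5.18 CPM in control and 15.3 ± 3.89 in senescent MEFs (−1.94, SE 0.28, adjusted p = 0.00072, SD over n = 3 throughout). Against control, 6 of 14 were lower and 0 higher at each dose, with medians of −0.70 at 100 μg/mL and −0.67 at 300 μg/mL, where 14.4% and 12.05% of all genes were lower. Against senescent MEFs, 1 of 14 was lower at 100 μg/mL, a count that was 0 with the replicate block, in a fit of the 2 groups alone and with any of the 6 samples left out, and 4 with composition offsets. The higher dose gave 0 by edgeR and 1 by DESeq2.

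All 8 subunits of TRiC, the ring-shaped chaperonin that folds actin and tubulin, lay on the lower side in each comparison against control or senescent MEFs. In senescent against control MEFs 0 of 8 passed the adjusted p by edgeR and 3 did by DESeq2, with a median of −0.48. Against control, 7 of 8 were lower at 100 μg/mL (median −1.13) and 8 of 8 at 300 μg/mL (median −1.07), beside the same 14.4% and 12.05% of all genes. Against senescent MEFs, 3 of 8 were lower at 100 μg/mL, namely Cct3, Cct7 and Tcp1, named after their values were seen (2.89% of all genes were lower). The higher dose gave 0 by edgeR, and 4 by DESeq2 or with composition offsets. The count of 3 at 100 μg/mL was 2 with the replicate block, 0 in a fit of only the 2 groups compared, and 0 without senescent mouse 5 or without mouse 4 or 5 of the treated group. In senescent against control MEFs, 5 of 8 passed without senescent mouse 6. Prefoldin, which hands actin and tubulin to TRiC, had 0 of 6 genes past the adjusted p in senescent against control MEFs and 3 of 6 lower at each dose against control.

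For the other lists in senescent against control MEFs, the shares of all genes past the adjusted p were 6.11% higher and 5.63% lower. Of 16 cochaperones of HSP70, 1 was higher and 0 lower in senescent against control MEFs. Among 8 other cytosolic HSP70 and HSP110 genes, Hspa2 was the one that passed, with 31.3 ± 14.1 CPM in control and 72.3 ± 12.7 in senescent MEFs (1.21, SE 0.29, adjusted p = 0.015). Its call did not hold in a fit of the 2 groups alone or without control or senescent mouse 5. Of 4 other small heat shock protein genes tested, Cryab, the αB-crystallin chaperone, went from 115 ± 14.4 CPM in control to 351 ± 74.4 in senescent MEFs (1.61, SE 0.20, adjusted p = 0.00025). It was at 194 ± 4.27 CPM with 100 μg/mL (−0.86 against senescent MEFs, SE 0.20, adjusted p = 0.031) and at 241 ± 47.6 CPM with 300 μg/mL. Of 4 heat shock factor genes tested, 2 were higher and 0 lower, Hsf4 and Hsbp1, which codes for a protein that binds heat shock factor 1. Hsbp1, named after its values were seen, was at 66.3 ± 13.7 CPM in control and 125 ± 36.9 in senescent MEFs (0.91, SE 0.22, adjusted p = 0.015). Hsf4, the heat shock factor of the lens, was at 1.29 ± 0.35 CPM in control and 6.34 ± 3.16 in senescent MEFs (2.30, SE 0.52, adjusted p = 0.011), though its call was lost in a fit of the 2 groups alone (adjusted p = 0.059). Of 14 chaperones of the endoplasmic reticulum, 2 were lower and 0 higher, among them the disulfide isomerase Pdia6 (893 ± 65.7 against 423 ± 78.9 CPM, −1.08, SE 0.21, adjusted p = 0.0047). Of 11 mitochondrial chaperone genes, 1 was lower and 0 higher in senescent MEFs. Of 16 other heat-inducible HSF1 targets, 2 were higher and 2 lower in senescent MEFs.

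**Figure D4:**
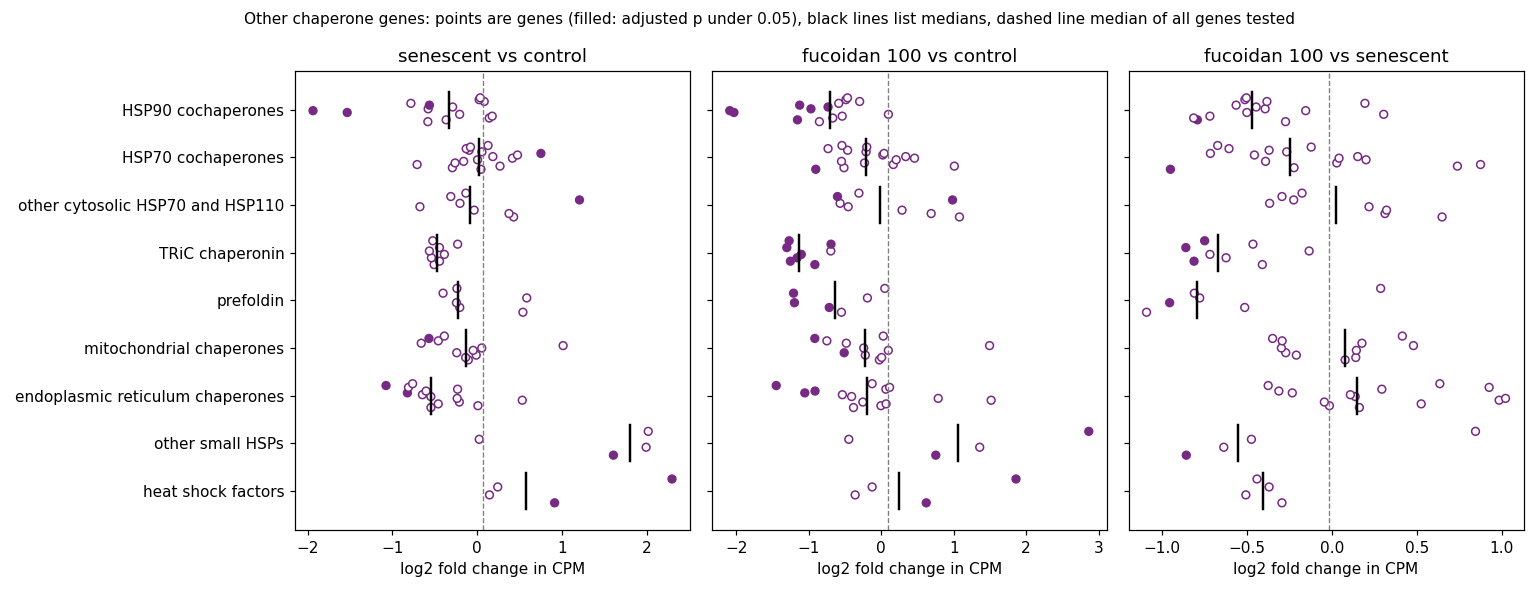
Log2 fold change in CPM of the genes of 9 chaperone lists in 3 comparisons (filled: adjusted p under 0.05), with the median of each list as a black line and that of all genes tested as a dashed line. The TRiC median lies at −1.13 for 100 μg/mL against control, and Fkbp4 and Fkbp5 are the filled points farthest to the left in the first panel.

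Among the members, the closest patterns over the 12 samples were those of Hspa8 and Hsp90aa1 (Pearson r of log2 CPM = 0.92) and of Hsp90ab1 and Hspd1 (r = 0.92), and the most opposed were those of Hspa1b and Hsph1 (r = −0.74). The genes outside the list with the pattern most like the sum of Hspa1a and Hspa1b were Mxra7, Zscan2, Apip, Nnat and Mdfi, with r from 0.81 to 0.84 over 12 samples. For Hsph1 they were Sec16b, Ubap2l, Zswim8, Ube4b and Cep295, with r from 0.96 to 0.98. Within groups, the CPM of Hspa8 and Hsp90aa1 both fell with the library deviation described above (r = −0.73 and −0.94). Hsp90ab1 and Hspd1 both rose with it (r = 0.76 and 0.91), while Hspa1b rose (r = 0.72) and Hsph1 fell (r = −0.91). The part of this library property in the patterns was not tested. Mouse numbers are shared between groups and library totals differ, and the order is a description.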

How the data were processed

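RNA-Seq libraries (TruSeq Stranded Total RNA, paired ends) of 12 MEF samples were analysed from the deposited gene tables. Per the labels and the study's methods, the authors checked reads with FastQC 0.12.1, trimmed them with Trimmomatic, aligned them to GRCm39 with STAR 2.7.11b and quantified genes with RSEM 1.3.1; the strand setting is not given in the sources used here. The deposited values are RSEM's expected counts, TPM and effective lengths.

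Libraries 5(1) and 5(2) were summed as counts and averaged as TPM. Expected counts were rounded, genes filtered with filterByExpr (minimum count 10, minimum total 15), scaled with TMM and fitted in 1 model of 4 groups with edgeR 4.0.16 (R 4.3.3), quasi-likelihood test, Benjamini-Hochberg adjustment over 15034 genes. SE and 95% intervals are on the log2 scale. The study's thresholds defined DEGs. DESeq2 1.42.0, RLE factors, other filters, the treatment of mouse 5, a mouse block, left-out replicates and composition offsets (mgcv 1.9.3) were alternatives. Effective length offsets and limma 3.58.1 on log2(TPM + 1), with TPM rescaled by TMM factors over the genes tested, were added after seeing the data. The scripts were tested on simulated data. Libraries held 22782536 to 31278750 expected counts, and the spread between samples includes that between libraries of 1 mouse.

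Mouse numbers are shared between groups by the labels. The 18 pairs of same-numbered samples correlated in their deviations by −0.20 to 0.43, 8 of them over 0.1. All 10 members are named. Of other chaperone genes, DEGs in senescent against control MEFs or in a dose against senescent MEFs are named, at most 4 per list and comparison. The 5 genes most like Hsph1 and the sum of Hspa1a and Hspa1b are named by correlation, with a mean of at least 1 CPM. The members and lists were chosen with earlier results of these data known. One promoter is not reported here.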

Additional observations from a re-analysis of the deposited data

How the results depend on the processing

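Of the 10 members, Hspa8, Hsp90aa1 and Hsp90ab1 were lower than control at the adjusted p at both doses under all alternatives run, with adjusted p up to 0.044. In senescent against control MEFs, 0 members were DEGs, 1 (Hspd1) with control mouse 5 from library 5(2), with effective length offsets or with limma on TPM rescaled by TMM factors, each without and with the replicate block where run, and 2 by the adjusted p alone. At 100 μg/mL against control, the 4 DEGs became 1 with DESeq2, RLE factors, at least 10 counts in every sample, only the 2 groups compared, or composition offsets without or with the block. They became 2 with libraries 5(1) and 5(2) separate, 5(2) alone, and effective length offsets or limma on TPM without or with the block, and ranged from 1 to 3 with 1 replicate left out. At 300 μg/mL against control, the 2 DEGs became 4 by the adjusted p alone and ranged from 1 to 2 with 1 replicate left out. With the mouse as a replicate block the counts were 4 and 2, and among the members the block alone changed 1 call by the adjusted p, that of Hspd1 in senescent against control MEFs (−0.91, adjusted p = 0.067). The cause of these shifts was not tested.

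Signs of members that passed no test changed as follows, as log2 fold changes. Leaving out 1 replicate gave, in senescent against control MEFs, Hspb1 −0.0124 to 0.78 and Hspb8 −0.0674 to 0.13. In 100 μg/mL against senescent MEFs it gave Hspa1b −0.43 to 0.58, Hspb8 −0.18 to 0.10, Hsph1 −0.10 to 0.40 and Hspd1 −0.34 to 0.12. In 300 μg/mL against senescent MEFs it gave Hspa1b −0.67 to 0.0821 and Dnajb1 −0.20 to 0.0453. Against control it gave Hspb8 −0.13 to 0.16 and Dnajb1 −0.15 to 0.0427 at 100 μg/mL, and Hspa1b −0.0768 to 0.62 at 300 μg/mL. For 100 μg/mL against senescent MEFs, composition offsets without and with the block gave Hspa1b −0.40 and −0.40, Hspb8 0.0433 and 0.0503, and Hsph1 −0.0041 and −0.0029, while the block gave Hspa1b −0.0747, and −0.0235 with effective length offsets. Composition offsets with the block gave Hspa1a 0.0755 for 300 μg/mL against senescent MEFs. Against control at 100 μg/mL, composition offsets without and with the block gave Hspa1a −0.48 and −0.43, Hspa1b −0.16 and −0.125, and Hspb8 0.12 and 0.12. Hspb8 was 0.0125 with DESeq2, 0.0162 with RLE factors, 0.0294 with at least 10 counts in every sample and 0.023 with only the 2 groups, and Dnajb1 was 0.0215 with limma on TPM without and with the block. At 300 μg/mL against control, Hspa1b was −0.0713 with 5(2) alone, and Hspb8 0.0623 and 0.0614 with composition offsets without and with the block. Low counts of Hspa1a and Hspa1b, at 4.42 to 35.1 CPM, limit what can be said of them.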
